A study of Fragaria vesca with 12 samples.

Results

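Genes of sucrose, raffinose, trehalose and starch metabolism were followed in ripe *Fragaria vesca* fruit of the cultivar Mara des Bois through storage. They were chosen by the words of their descriptions: sucrose, invertase, raffinose, galactinol, alpha-galactosidase, trehalose, MtN3, sugar transporter, hexokinase, fructokinase, starch or amylase, without those that mention pectin. This gave 181 of the 34008 genes in the table, 24595 of which have a description, and the word pectin left out 58. AH fruit was taken right after harvest without storage, and NCS fruit stood at 20°C for 2 days. ACS fruit spent 7 days at 1°C in air followed by 1 day at 20°C. CCS fruit had the same 7 days at 1°C and 1 day at 20°C, but the first 2 cold days were under 18% CO2 and the other 5 in air. Each group has 3 libraries, each from a mixture of at least 50 strawberries by the RNA protocol. The study describes its frozen fruit in smaller batches, so the number of fruits behind a replicate is uncertain. ACS and CCS fruit came from 1 storage container each, so CO2 and container cannot be told apart. The replicates therefore measure the spread between fruit mixtures, not between containers. Cold-stored fruit also differed from NCS fruit in its time in storage and its days at 20°C. The effect of cold cannot be told apart from these.

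Sucrose is the sugar that plants move from leaf to fruit. It enters cells through sucrose transporters and leaves them through SWEET channels, the proteins that the descriptions call MtN3. Invertase and sucrose synthase cleave it, and sucrose phosphate synthase with sucrose phosphatase makes it anew. Hexokinases and fructokinases phosphorylate the hexoses that result. Galactinol synthase couples galactose to myo-inositol, raffinose synthase passes that galactose on to sucrose, and alpha-galactosidase removes it again. Raffinose sugars are known to build up in plants under cold and drought and in maturing seeds. Trehalose 6-phosphate acts as a signal of the sucrose level. Amylases and isoamylases break starch down.

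Levels are given as RPKM, the reads of a gene divided by its length in kilobases and by the size of the library, so that genes of unequal length can be set side by side. Library totals recovered from the RPKM values ran from 64.2 to 119.9 M (mega) reads. On a gene of 2882 bp, 10 reads are worth 0.0289 to 0.0541 RPKM. This is the median recovered length of the genes with at least 10 reads in some library. Each comparison is limma on log2(RPKM + 0.1), with p-values adjusted over all genes tested by the Benjamini-Hochberg method. A gene entered when 3 or more of the 6 libraries reached 0.5 RPKM. In the order AH, NCS, ACS and CCS, fold changes put the later group over the earlier one, whichever a sentence names first. The added 0.1 makes them too small for low genes. In what follows, rose and fell refer to an adjusted p no higher than 0.05, and a differentially expressed gene (DEG) also changed by at least 1.5 on the log2 scale. Since the smallest p of an exact permutation test with 3 libraries in each of the groups is 0.1, the p-values rest on the model.

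Most of these genes were low. Of the 181, 7 were at 0 in all 12 libraries, 65 had a mean under 0.5 RPKM, 31 a mean of at least 10 and 1 a mean of at least 100. Together they held between 0.306 and 0.395% of all RPKM of a library. The filter let 120 genes into at least 1 comparison and 112 into all 6, and 61 were in none. Sucrose and hexose transport held 25 of the 65 genes with a mean under 0.5 RPKM. By role, 12 genes belong to the raffinose family, 37 to sucrose and hexose transport, 13 are invertases, 20 make or cleave sucrose and 7 phosphorylate hexoses. A further 12 belong to trehalose, 13 to starch synthesis and 20 to starch breakdown. The remaining 47 were matched by the words of the rule but kept apart from these roles: 29 nucleotide-sugar transporters, 11 phosphofructokinases and 7 genes with names such as sucrose nonfermenting.

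In the whole set, 11 genes were a DEG in at least 1 of the 6 comparisons, 10 of them against AH, and 5 were DEGs against AH in all 3 stored groups. AH against NCS had 6 higher and 3 lower DEGs among 116 tested, where 3.98% and 2.36% of all genes tested were called higher and lower. AH against ACS had 6 higher and 1 lower among 118, with 7.15% and 1.4% over all genes. AH against CCS had 5 higher and 1 lower among 119, with 5.47% and 1.15% over all genes. In NCS against ACS, 4 of 115 were higher and 0 lower, and the shares over all genes were 3.1% and 0.226%. In NCS against CCS, 2 of 114 were higher and 1 lower, and the shares were 3.05% and 0.677%. In ACS against CCS, 0 of 116 were higher and 1 lower, with 0.024% and 0.294% over all genes. Each of these counts is small, and the shares of the set were 0 to 5.17% higher and 0 to 2.59% lower. The median log2 fold changes of the set ran from -0.11 to 0.03 beside those of all genes tested, from -0.07 to 0.14. By adjusted p alone, 44, 60 and 49 genes passed against AH in NCS, ACS and CCS, which was 37.9%, 50.8% and 41.2% of those tested, beside 36.1%, 42.8% and 37.5% of all genes tested. The other counts were 55 in NCS against ACS, 57 in NCS against CCS and 31 in ACS against CCS, where 48.0%, 51.6% and 28.7% of all genes passed. The count of 31 fell to 16 without ACS replicate 2, 16 without CCS replicate 2 and 15 without CCS replicate 3. Comparisons that share a group are not independent of each other.

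**Figure D1:**
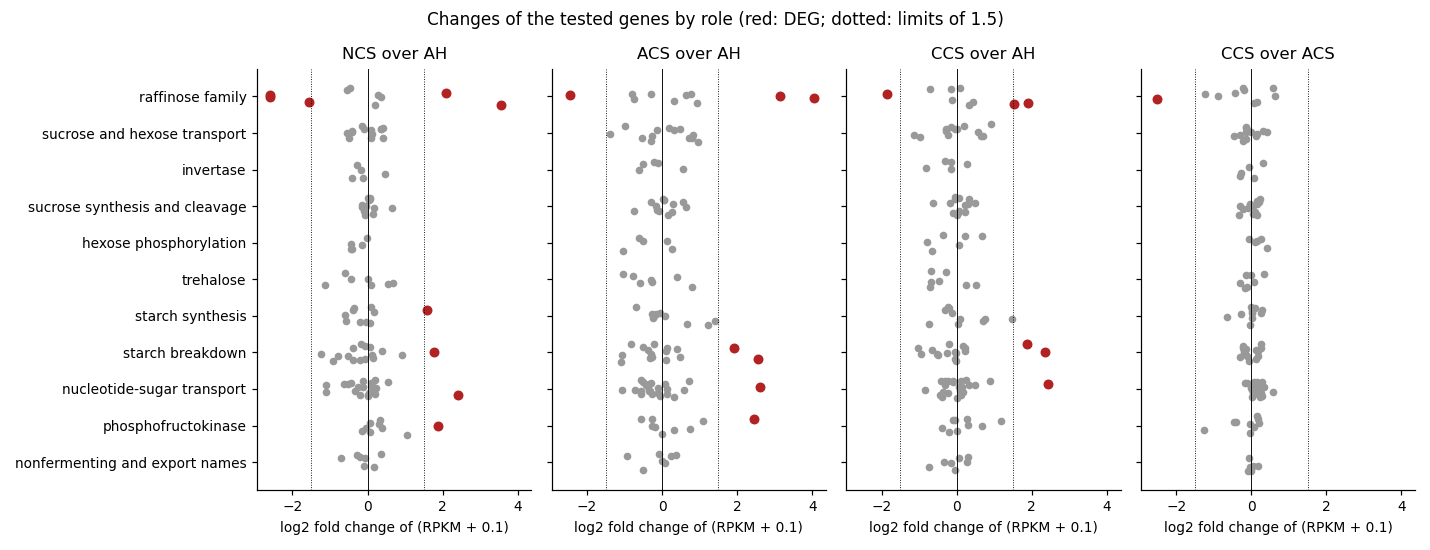
Log2 fold change of (RPKM + 0.1) of each tested gene by role, for NCS, ACS and CCS over AH and for CCS over ACS, with DEGs in red and dotted lines at the limits of 1.5. The red points of the raffinose family lie on both sides of 0 in each comparison with AH, and the only red point of CCS over ACS is galactinol synthase 2 FvH4_4g20790 at -2.51.

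The DEGs were spread unevenly over the roles. The raffinose family held 5 DEGs among 10 genes tested in AH against NCS, 3 of 10 in ACS and 3 of 9 in CCS. These are 50%, 30% and 33.3%, beside 6.34%, 8.55% and 6.62% of all genes tested. FvH4_4g20790 and FvH4_4g05940, DEGs in each of these, were under 0.5 RPKM in every AH library. They passed the filter against AH only through the stored libraries, where they were higher. The shares are thus a description and not a test of the family. The family held 3 of 10 in NCS against ACS (30%, beside 3.33%) and all of the DEGs of NCS against CCS and ACS against CCS. The shares over all genes in those 2 were 3.73% and 0.318%. No gene of sucrose and hexose transport, invertase, sucrose synthesis and cleavage, hexose phosphorylation or trehalose was a DEG in any comparison. These roles had 5 to 14 genes tested in a comparison, so a count of 0 says little about them. Of the other DEGs, 2 break starch down, 2 bear the name of starch initiation proteins, 1 is a nucleotide-sugar transporter and 1 a phosphofructokinase.

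The study designed primers for 4 of these genes, which were followed by quantitative PCR, and they are shown as the sequences by which the study identified these genes. Only FvH4_4g20790 among them was a DEG. They are written 5′ to 3′, and each gene's chromosome is the digit before the g in its identifier. No coordinates are given, since no annotation of the genome version behind these identifiers was used here.
FvH4_4g20790 galactinol synthase 2, forward: ggtgaagaaatggtgggagata
FvH4_4g20790 galactinol synthase 2, reverse: cggtgcacttctctgctgat
FvH4_1g02620 raffinose synthase, forward: tggagccattgaagagttga
FvH4_1g02620 raffinose synthase, reverse: aaagacaccaacccagatgc
FvH4_2g12370 alpha-galactosidase 1, forward: gcttggggcatcgattattta
FvH4_2g12370 alpha-galactosidase 1, reverse: ggtgcatatctccccactcg
FvH4_2g02090 neutral invertase, forward: aagacaactggcccgaatac
FvH4_2g02090 neutral invertase, reverse: cctcattgcaggcttcatc

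Galactinol synthase makes the galactose donor of the raffinose pathway, and its genes moved in opposite directions. FvH4_4g20790, described as galactinol synthase 2, was low at harvest, with 0.405, 0.314 and 0.337 RPKM in the AH libraries. It reached 2.25, 1.45 and 1.79 in NCS, 9.08, 6.68 and 6.33 in ACS and 1.24, 1.22 and 1.12 in CCS. No 2 groups overlapped, and every ACS library was above every other. It was a DEG against AH everywhere, by 2.08 in NCS (standard error 0.16, adjusted p = 0.00011), by 4.03 in ACS (standard error 0.16, adjusted p = 5.3e-06) and by 1.52 in CCS (standard error 0.10, adjusted p = 5.9e-05) on the log2 scale. CCS was lower than ACS by a log2 fold change of -2.51 (standard error 0.14, adjusted p = 0.00036), and this was the only DEG of the set between these groups. In NCS against ACS it was also a DEG, at 1.96 with a standard error of 0.19. The value of 1.52 for CCS lies at the limit: it was 1.4595 without AH replicate 2, 1.4988 without AH replicate 3, 1.49 without CCS replicate 1 and 1.47 with median-of-ratios scaling, with adjusted p-values that stayed at or under 0.00079. The comparison of NCS with CCS, -0.56, lost its adjusted p without NCS replicate 3, CCS replicate 2 or CCS replicate 3, where it lay between 0.0517 and 0.0528.

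FvH4_6g07920 and FvH4_6g07930, described as galactinol synthase 1 and 2, carry neighbouring identifiers and were high at harvest. FvH4_6g07930 had 7.97, 8.32 and 12.01 RPKM in AH, 1.48, 1.56 and 1.32 in NCS, 1.598, 1.66 and 1.62 in ACS and 2.87, 2.45 and 2.15 in CCS. All 9 stored libraries lay below all AH libraries. Against AH it was a DEG in each stored group, with log2 fold changes of -2.60 in NCS, -2.44 in ACS and -1.87 in CCS (standard errors 0.17, 0.16 and 0.18). FvH4_6g07920 had 7.13, 10.9 and 18.4 RPKM in AH and 1.96, 2.12 and 1.32 in NCS. It had 9.53, 4.89 and 5.66 in ACS and 9.33, 8.97 and 3.74 in CCS, so that both cold-stored groups overlapped with AH. The gene was a DEG in AH against NCS (-2.61, standard error 0.35, adjusted p = 0.0012), in NCS against ACS (1.81, standard error 0.28, adjusted p = 0.0027) and in NCS against CCS (1.89, standard error 0.37, adjusted p = 0.0068).

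The ratio of FvH4_6g07920 to FvH4_6g07930 was 0.895, 1.31 and 1.53 in AH and 1.33, 1.36 and 0.995 in NCS. In the cold-stored libraries it was higher, at 5.97, 2.94 and 3.51 in ACS and 3.25, 3.67 and 1.74 in CCS. Neither cold-stored group overlapped with AH or NCS. The difference of the mean log2 ratio was 1.7007 in ACS and 1.18 in CCS against NCS. This ratio was not a planned comparison. The two-sided exact permutation p was 0.1 for each, the smallest that 3 libraries against 3 can give. Groups that do not overlap always give this p, so it adds nothing to the values. Reads of close copies can be assigned to either gene, and how far these 2 share sequence was not examined here.

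Another galactinol synthase changed less between the groups. FvH4_1g26560, galactinol synthase 1, had a mean of 5.42 ± 0.327 RPKM in AH (SD, n = 3), 6.28 ± 0.262 in NCS, 8.70 ± 2.25 in ACS and 7.57 ± 1.89 in CCS. Its value in ACS against AH, 0.64 with an adjusted p of 0.026, did not pass without AH replicate 1 (0.061) or AH replicate 2 (0.075) or with a replicate block (0.057). The fifth gene was under the filter in all comparisons.

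Raffinose synthase, which makes raffinose from galactinol and sucrose, was led by FvH4_1g02620. It had 19.0, 19.2 and 18.5 RPKM in AH, 24.1, 25.5 and 23.0 in NCS, 30.8, 32.6 and 32.6 in ACS and 26.1, 21.9 and 23.6 in CCS. The ACS libraries were the highest and the AH libraries the lowest, while NCS and CCS overlapped. It rose by 0.76 in ACS against AH on the log2 scale (standard error 0.07, adjusted p = 0.00025) and by 0.40 in ACS against NCS (adjusted p = 0.0021). From ACS to CCS it fell by 0.42 (adjusted p = 0.011). None of these reached the fold of a DEG. Its 0.35 in NCS against AH had an adjusted p of 0.011, but 0.0511 without NCS replicate 1 and 0.0526 without NCS replicate 2. Its 0.33 in CCS against AH had an adjusted p of 0.027, which was lost without AH replicate 2 or 3 and without CCS replicate 1 or 3 (0.062 to 0.0888), with a replicate block (0.0652) and with median-of-ratios scaling (0.0666).

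FvH4_5g05860, another raffinose synthase, was named after its values were seen. It had 2.90, 3.57 and 5.65 RPKM in AH, 1.24, 1.52 and 1.02 in NCS, 7.74, 3.91 and 3.70 in ACS and 6.61, 5.82 and 1.83 in CCS. The NCS libraries lay below all others, and the cold-stored libraries spread widely. It was a DEG in AH against NCS (-1.57, standard error 0.25) and in NCS against ACS (1.87, standard error 0.29). The first was under the limit of 1.5 without AH replicate 3 (-1.30) and without NCS replicate 3 (-1.44). In NCS against CCS it was called at 1.66 with an adjusted p of 0.026, and this call was lost without any 1 library other than CCS replicate 3, with adjusted p-values up to 0.0817, and without a filter (0.051).

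The same libraries stood out for oleosin transcripts. Strawberries carry their seeds in achenes on the surface, and oleosins coat the oil bodies of seeds. The 9 genes described as oleosins, all above 0, summed to 1341, 1249 and 1742 RPKM in AH, 364, 408 and 308 in NCS, 2109, 999 and 996 in ACS and 1676, 1529 and 516 in CCS. Within their groups, AH replicate 3, ACS replicate 1 and CCS replicates 1 and 2 were thus high and CCS replicate 3 low, as for FvH4_6g07920 and FvH4_5g05860. The whole list of 176 genes with seed words has 20 at 0 in all libraries. Its sums were 14928 to 16164 RPKM in AH and 8148 to 8293 in NCS. They ran from 9028 to 10926 for ACS and from 7801 to 9567 for CCS. In this list AH replicate 3 was the lowest of AH, while ACS replicate 1 was high and CCS replicate 3 low. Its 68 genes without late embryogenesis abundant names had means of 12484 (AH), 6308 (NCS), 6582 (ACS) and 6367 (CCS). These genes thus stayed near NCS in cold-stored fruit, unlike the oleosins. The 108 genes with such names had 2997, 1917, 3160 and 2561, by the same order. FvH4_5g18321 alone held 44.5 to 70.4% of the whole sum. Another 70 genes with words for chlorophyll binding and photosystems, 1 of them at 0, summed to 121 to 152 in AH and 58.5 to 60.6 in NCS, against 64.9 to 82.5 in ACS and 79.5 to 90.8 in CCS. What part these tissues had in the raffinose results was not tested. In RNA of whole fruit, fewer cells of a kind and less RNA per cell cannot be told apart.

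Alpha-galactosidases, which release galactose from raffinose sugars and other galactosides, also split. FvH4_4g05940, alpha-galactosidase 2, had 0.450, 0.288 and 0.276 RPKM in AH, 5.05, 5.56 and 4.36 in NCS, 3.41, 4.29 and 3.48 in ACS and 1.52, 1.51 and 1.52 in CCS. Every stored library was above every AH library, and the CCS libraries were the lowest of the stored. Against AH the log2 fold changes were 3.55 in NCS (adjusted p = 1.3e-05), 3.14 in ACS and 1.91 in CCS, with standard errors of 0.17, 0.17 and 0.15, and each made it a DEG. CCS was lower than NCS by a DEG of -1.65 (standard error 0.09) and lower than ACS by -1.23 (standard error 0.09, adjusted p = 0.00063), under the fold of a DEG. FvH4_2g12370, alpha-galactosidase 1, went the other way, with means of 3.69 ± 0.039 RPKM in AH and 2.50 ± 0.089 in NCS, against 2.16 ± 0.215 in ACS and 3.40 ± 0.167 in CCS (SD, n = 3). It fell by 0.54 in NCS and by 0.75 in ACS against AH on the log2 scale (adjusted p = 0.0012 and 0.00084), and CCS was above ACS by 0.63 (adjusted p = 0.0042). Its CCS and AH libraries did not overlap, but the difference of -0.12 did not pass (adjusted p = 0.28).

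**Figure D2:**
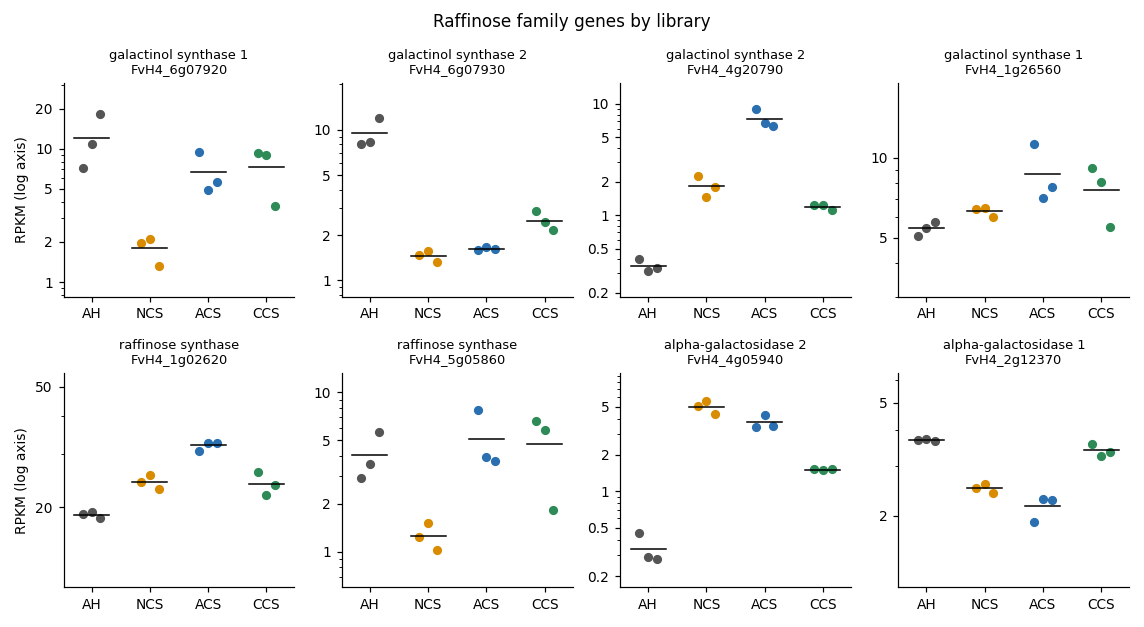
RPKM of 8 raffinose family genes in each of the 12 libraries, on log axes that differ between panels, with 1 point per library and a line at the group mean. FvH4_4g20790 is highest in ACS, FvH4_6g07930 is low in all stored groups, and CCS replicate 3, the right point of CCS, is low for FvH4_6g07920 (3.74) and FvH4_5g05860 (1.83).

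In starch breakdown, 2 genes were DEGs against AH. FvH4_5g20800, described as a chloroplast beta-amylase, an enzyme type that cuts maltose from starch chains, had 2.24, 2.43 and 2.66 RPKM in AH and 8.43, 8.35 and 8.65 in NCS. It had 13.3, 14.8 and 16.4 in ACS and 12.5, 12.9998 and 13.1 in CCS. AH was lowest, NCS lay between, and the cold-stored groups were next to each other at the top. The log2 fold change from AH was 1.76 in NCS, 2.55 in ACS and 2.35 in CCS (standard errors 0.09, 0.11 and 0.09; adjusted p at most 1.4e-05). The difference between ACS and CCS did not pass (-0.20, adjusted p = 0.13).

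FvH4_2g06030, described as alpha-amylase-like, followed the same order. Its libraries had 3.33, 2.84 and 2.69 RPKM in AH, 5.63, 5.68 and 5.53 in NCS, 11.1, 11.5 and 11.8 in ACS and 11.7, 10.9 and 10.7 in CCS. DEG calls were made in ACS (1.92) and CCS (1.88) against AH (standard error 0.10 for each), and it rose by 0.91 in NCS. NCS to ACS was 1.02 and NCS to CCS 0.97 (standard error 0.05 for each). FvH4_2g37840, alpha-amylase-like 2, was named after its values were seen. It fell from 6.69 ± 0.877 RPKM in AH to 3.79 ± 0.183 in NCS, and reached 9.32 ± 0.958 in ACS and 7.49 ± 0.116 in CCS (SD, n = 3), with 1.27 from NCS to ACS (adjusted p = 8.6e-05).

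The 2 most abundant genes of starch breakdown did not pass against AH. FvH4_4g05230, beta-amylase 1, had means of 44.1, 46.5, 46.9 and 43.1 RPKM in AH, NCS, ACS and CCS, with SDs from 0.408 to 2.53 and no adjusted p under 0.16. FvH4_5g36440, isoamylase 3, a debranching enzyme, had 36.0 ± 6.28, 46.5 ± 0.989, 28.5 ± 0.798 and 31.0 ± 1.83 (SD, n = 3). It fell by 0.70 from NCS to ACS and by 0.58 from NCS to CCS on the log2 scale (adjusted p = 8.8e-05 and 0.00036). In the whole role, 6 of 16 genes tested passed the adjusted p in NCS, 7 of 16 in ACS and 6 of 16 in CCS against AH. These are 37.5%, 43.8% and 37.5%, beside 36.1%, 42.8% and 37.5% of all genes tested.

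In the starch synthesis group, the changes were in genes named as plant glycogenin-like starch initiation proteins. In Arabidopsis this family of glycosyltransferases includes enzymes of xylan in the cell wall, and whether these genes act in starch was not tested. FvH4_2g14610, number 2 of this name, had 10.8, 12.6 and 12.6 RPKM in AH, 35.1, 36.2 and 36.6 in NCS, 25.7, 28.8 and 29.4 in ACS and 33.0, 32.5 and 35.1 in CCS. All stored libraries were above all AH libraries. It was a DEG in NCS (1.58, standard error 0.09, adjusted p = 2.5e-05), and it rose by 1.22 in ACS and 1.48 in CCS (standard errors 0.10 and 0.09). The value in CCS passed the limit of a DEG without AH replicate 2 (1.52), AH replicate 3 (1.51) or CCS replicate 2 (1.5013). FvH4_2g34480, number 3, had 0.570, 0.577 and 0.818 RPKM in AH, 0.373, 0.466 and 0.368 in NCS, 1.95, 1.74 and 1.91 in ACS and 1.27, 1.159 and 1.03 in CCS. Its groups did not overlap, with ACS at the top and NCS at the bottom. Every NCS library was under 0.5 RPKM, so the gene passed the filter against NCS only through the other group. It was a DEG in NCS against ACS (1.97, standard error 0.09), though with a pseudocount of 1 RPKM this was 1.03, and CCS was below ACS by -0.66 (standard error 0.09, adjusted p = 0.0039). From AH to ACS it rose by 1.40, which was 1.55 without AH replicate 3. FvH4_6g01530, number 6, stayed between means of 15.9 and 16.7 RPKM, with no adjusted p under 0.63. The other tested genes of starch synthesis, the synthases and branching enzymes, had means of at most 7.00 RPKM in any group and held no DEG.

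Among the genes matched by words but kept apart from these roles, 2 were DEGs. FvH4_2g28960, a nucleotide/sugar transporter of the kind that carries activated sugars across internal membranes, had 7.38, 9.26 and 9.12 RPKM in AH. It had 45.6, 44.5 and 46.2 in NCS, 47.9, 54.5 and 55.5 in ACS and 41.1, 50.2 and 49.6 in CCS, so that all 9 stored libraries were at or above 41.1. The log2 fold changes from AH were 2.40, 2.61 and 2.44 (standard errors 0.11, 0.12 and 0.13). FvH4_6g32610, phosphofructokinase 3, which phosphorylates fructose 6-phosphate in glycolysis, had 0.771, 0.717 and 0.552 RPKM in AH, 2.56, 3.12 and 2.62 in NCS, 4.45, 4.19 and 3.73 in ACS and 1.64, 1.63 and 1.68 in CCS. No 2 groups overlapped. Phosphofructokinase 3 was a DEG in NCS (1.88, standard error 0.14) and ACS (2.45, standard error 0.13) against AH, rose by 1.18 in CCS, and was lower in CCS than in ACS by -1.27 (standard error 0.07, adjusted p = 0.0004).

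**Figure D3:**
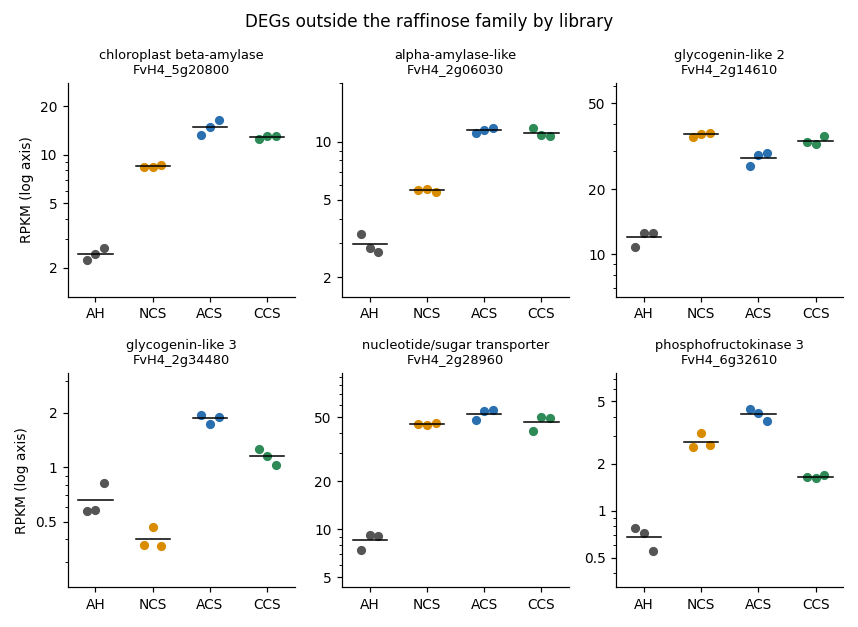
RPKM of the 6 DEGs outside the raffinose family in each library, on log axes that differ between panels, with 1 point per library and a line at the group mean. The beta-amylase and the alpha-amylase-like gene rise from AH through NCS to the cold-stored groups, and phosphofructokinase 3 is lower in CCS (1.63 to 1.68) than in ACS (3.73 to 4.45).

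The most abundant members of these same roles changed less. FvH4_2g17260, a nucleotide-sugar transporter, had the highest mean of the whole set, with 103 ± 4.12 RPKM in AH and 118 ± 2.44 in NCS, against 110 ± 6.40 in ACS and 112 ± 4.06 in CCS (SD, n = 3), and no adjusted p under 0.081. FvH4_1g23140, of the same description, had 46.8 RPKM in AH and NCS and 35.9 in ACS and CCS, and it fell by 0.38 from NCS to each cold-stored group on the log2 scale (adjusted p = 0.002 for each). The phosphofructokinase FvH4_3g01360 fell from 56.6 ± 3.56 RPKM in AH to 38.5 ± 1.49 in ACS (-0.55, adjusted p = 0.0021) and from 50.9 ± 1.73 in NCS. The other abundant one, FvH4_5g26380, was at 51.4 ± 5.21 in AH and 42.8 ± 2.66 in ACS, a difference that did not pass (adjusted p = 0.09). The chromatin subunits FvH4_5g08750 and FvH4_2g27500, whose names hold sucrose only through a yeast mutant, had means between 6.65 and 7.68 RPKM in all groups and no adjusted p under 0.27.

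Among transporters, 1 sugar transporter and 1 MtN3 gene led in level, and they moved in opposite directions in cold-stored fruit. FvH4_3g03900, sugar transporter 1, of a family that takes hexoses into cells with protons, had 50.5, 54.8 and 50.7 RPKM in AH, 46.2, 46.3 and 48.0 in NCS, 93.3, 105 and 102 in ACS and 79.3, 82.8 and 82.5 in CCS. All cold-stored libraries were at least 79.3, and all others at most 54.8. It rose by 0.94 in ACS and 0.65 in CCS against AH (standard error 0.08 for each) and by 1.09 and 0.80 against NCS (standard errors 0.06 and 0.05). Its difference between ACS and CCS, -0.29 with an adjusted p of 0.017, did not pass without ACS replicate 2 (0.0635), CCS replicate 2 (0.0515) or CCS replicate 3 (0.0506). FvH4_2g24900, MtN3, had 28.5, 38.3 and 36.7 RPKM in AH, 26.4, 24.2 and 26.6 in NCS, 12.8, 13.1 and 13.2 in ACS and 17.5, 17.8 and 17.0 in CCS. Cold-stored libraries were the lowest, ACS below CCS. It fell by 1.39 in ACS and 0.97 in CCS against AH on the log2 scale (standard error 0.12 for each), and CCS was above ACS by 0.42 (standard error 0.05, adjusted p = 0.0023). The change in ACS reached the fold of a DEG without AH replicate 1 (-1.52). Against NCS it fell by 0.97 in ACS and 0.56 in CCS. Of the 37 genes of this role, 13 could be tested against AH, and 4, 8 and 6 of these passed the adjusted p in NCS, ACS and CCS. The shares were 30.8%, 61.5% and 46.2%, where all genes gave 36.1%, 42.8% and 37.5%.

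Invertases cleave sucrose into glucose and fructose. Only neutral and cytosolic invertases could be tested, 5 genes in all, while the 2 cell wall invertases were under the filter in every comparison. The 2 genes with a levansucrase-like name were also under it. No description in the set names a vacuolar invertase, so the vacuolar gene that the study cites from its earlier work was not identified here. FvH4_2g02090 had 7.04, 7.84 and 7.63 RPKM in AH, 5.52, 5.57 and 5.58 in NCS, 4.90, 4.61 and 5.001 in ACS and 6.12, 5.99 and 5.94 in CCS. No 2 groups overlapped. It fell by 0.43 in NCS and 0.62 in ACS against AH on the log2 scale (standard error 0.08 for each, adjusted p = 0.0049 and 0.001), and CCS was above ACS by 0.31 (standard error 0.05, adjusted p = 0.0084). The difference of CCS from AH, -0.31 with an adjusted p of 0.02, was lost without AH replicate 2, without any CCS replicate and with a replicate block (0.0579 to 0.0831). FvH4_5g31270, cytosolic invertase 2, was named after its values were seen. It fell from 11.5 ± 0.614 RPKM in AH to 8.01 ± 0.566 in ACS and 6.47 ± 0.0549 in CCS, log2 fold changes of -0.51 and -0.81 (adjusted p = 0.0039 and 0.00028). The 2 invertases with the highest means, FvH4_3g24390 (11.1 to 13.2 RPKM in group means) and FvH4_6g07880 (9.36 to 11.5), had no adjusted p under 0.18 and 0.054.

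Sucrose phosphate synthases make sucrose, and sucrose synthases cleave it reversibly. FvH4_1g02490, sucrose phosphate synthase 1F, the most abundant gene of the role, had means of 44.7 ± 6.49, 45.4 ± 0.623, 39.8 ± 1.72 and 41.1 ± 1.15 RPKM in AH, NCS, ACS and CCS (SD, n = 3) and did not pass against AH. Against NCS it was -0.19 in ACS (adjusted p = 0.024) and -0.14 in CCS (adjusted p = 0.041), which was above 0.05 without any NCS replicate, without ACS replicate 2 or 3 and without any CCS replicate (up to 0.114). Both values also missed it with a replicate block (0.0513 and 0.106), without a filter (0.055 and 0.0884) and with all 12 libraries in 1 fit (0.133 and 0.253). None of the 7 or 8 sucrose phosphate synthases tested passed against AH in any stored group. FvH4_2g26000, sucrose synthase 3, had 19.2, 21.6 and 21.7 RPKM in AH, 32.8, 33.8 and 32.1 in NCS, 34.2, 32.2 and 30.9 in ACS and 26.7, 26.2 and 25.8 in CCS. NCS and ACS were highest and overlapped, with CCS between them and AH. It rose by 0.66 in NCS and 0.64 in ACS against AH (adjusted p = 0.00092 and 0.0013), and CCS was lower than ACS by -0.30 (adjusted p = 0.011). FvH4_1g09360, sucrose synthase 4, named after its values were seen, was lower in cold-stored fruit, going from 17.3 ± 0.315 RPKM in AH and 16.7 ± 0.701 in NCS to 10.36 ± 0.177 in ACS and 11.1 ± 0.415 in CCS, a fall of 0.68 from NCS to ACS on the log2 scale (adjusted p = 0.00013).

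Hexose phosphorylation was carried by FvH4_1g06270, hexokinase 1, which in Arabidopsis also senses glucose. Its libraries had 89.3, 95.6 and 90.1 RPKM in AH, 83.0, 84.7 and 80.5 in NCS, 63.1, 64.5 and 66.3 in ACS and 72.4, 72.4 and 70.3 in CCS. No 2 groups overlapped, with AH at the top and ACS at the bottom. It fell by 0.50 in ACS against AH and by 0.36 against NCS on the log2 scale (adjusted p = 0.0018 and 0.0016), and the difference of CCS from ACS, 0.15, did not pass (adjusted p = 0.056). The summed RPKM of the 7 genes of this role was 105 to 113 in AH and 93.5 to 97.5 in NCS, against 73.4 to 77.9 in ACS and 82.5 to 84.0 in CCS. FvH4_2g38530, hexokinase 3, fell from 8.84 ± 0.386 RPKM in AH to 5.78 ± 0.735 in ACS and 5.55 ± 0.448 in CCS (adjusted p = 0.0043 and 0.0015).

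**Figure D4:**
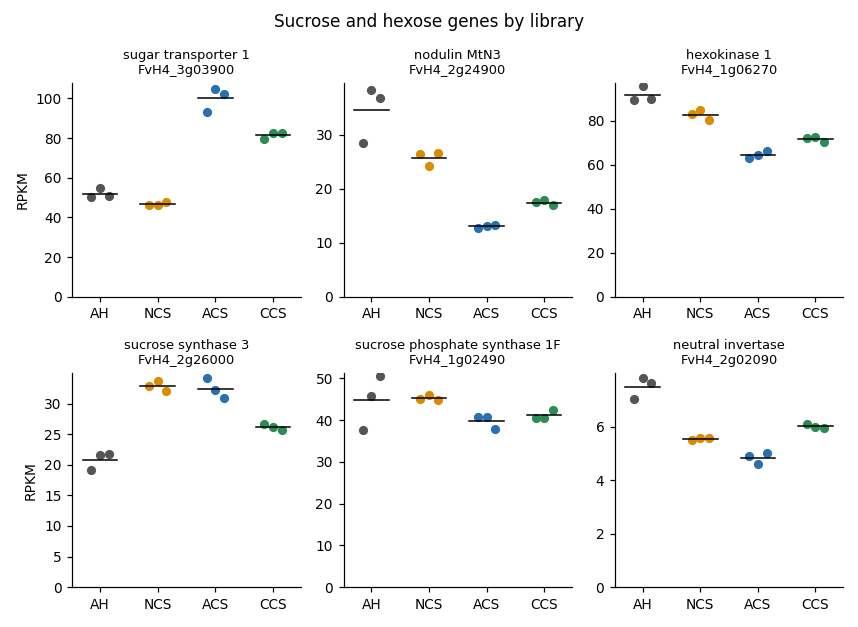
RPKM of 6 sucrose and hexose genes in each library, on linear axes from 0, with 1 point per library and a line at the group mean. Sugar transporter 1 is at least 79.3 RPKM in all cold-stored libraries, MtN3 is lowest in ACS (12.8 to 13.2), and sucrose phosphate synthase 1F lies between group means of 39.8 and 45.4.

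Of the trehalose genes, FvH4_3g07260, trehalose-phosphatase/synthase 7, was the most abundant, with 53.2, 58.4 and 79.9 RPKM in AH, 46.0, 46.5 and 47.2 in NCS, 47.4, 45.3 and 34.4 in ACS and 38.3, 41.5 and 36.8 in CCS. AH libraries were above all others and spread widely. CCS was lower than AH by -0.69 (adjusted p = 0.015), with adjusted p-values of 0.0526 and 0.0528 without CCS replicates 1 and 3. FvH4_3g06590, a trehalose-6-phosphate synthase, fell from 29.9 ± 1.34 RPKM in NCS to 24.4 ± 0.810 in ACS and 24.1 ± 0.320 in CCS (adjusted p = 0.0062 and 0.0034). Of 12 trehalose genes, 7 were tested, and 4, 4 and 5 passed the adjusted p against AH in NCS, ACS and CCS. With 7 genes these shares of 57.1%, 57.1% and 71.4% rest on few genes, and over all genes they were 36.1%, 42.8% and 37.5%.

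**Figure D5:**
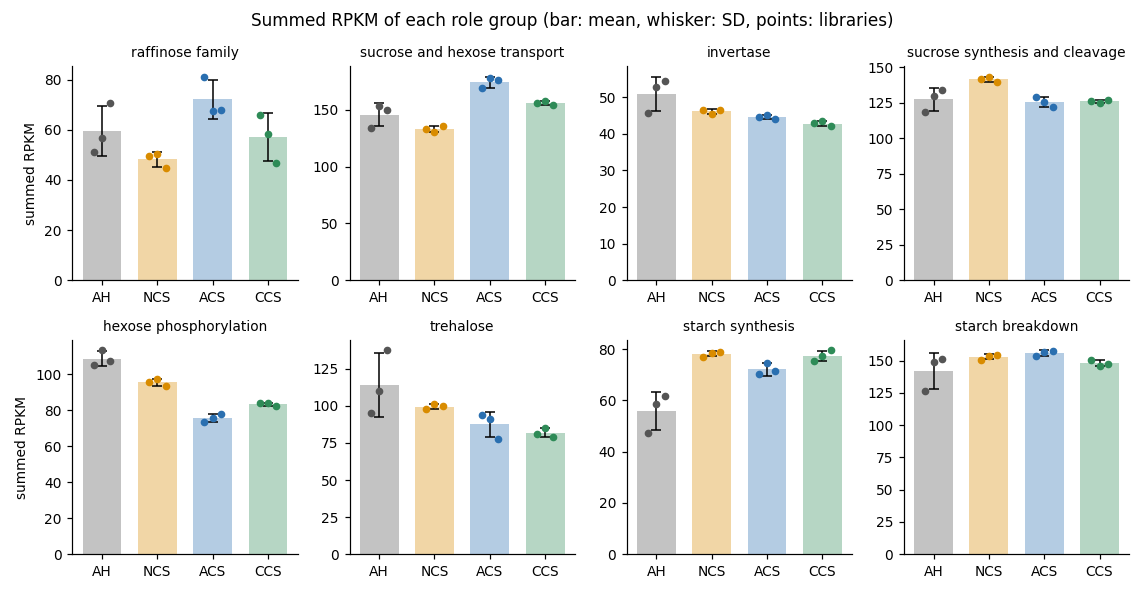
Summed RPKM of 8 role groups in the 4 groups, with bars from 0 at the mean of 3 libraries, whiskers of 1 SD and points for the libraries. Hexose phosphorylation is lowest in ACS (73.4 to 77.9), starch synthesis is higher in stored fruit (70.1 to 79.5) than in AH (47.4 to 61.6), and sucrose and hexose transport is highest in ACS (169 to 178). The higher sum of starch synthesis lies in its starch initiation genes, mostly in FvH4_2g14610, and not in its synthases or branching enzymes.

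Summed by role, starch synthesis had 55.8 ± 7.46 RPKM at harvest and 78.2 ± 1.03 (NCS), 72.0 ± 2.41 (ACS) and 77.4 ± 1.99 (CCS) after storage (SD, n = 3), as a description with no test. The higher sum lay in the starch initiation genes, mostly in FvH4_2g14610. Their means were 28.6, 53.2, 46.6 and 51.6 RPKM in AH, NCS, ACS and CCS. Starch synthases had 20.4, 20.2, 20.1 and 21.2 in the same order, and branching enzymes 6.74, 4.74, 5.36 and 4.73. Sucrose and hexose transport was 134 to 153 in AH and 130 to 136 in NCS, against 169 to 178 in ACS and 155 to 158 in CCS, and the sum is led by FvH4_3g03900. The 8 sucrose transporters summed to 16.6 to 24.2 RPKM over all libraries.

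Genes of neighbouring steps that are not in the set, chosen by description, numbered 34, of which 20 or 21 were tested. None was a DEG in any comparison with limma, while 13, 15 and 13 passed the adjusted p in NCS, ACS and CCS against AH, which was 61.9%, 75% and 61.9% of those tested beside 36.1%, 42.8% and 37.5% of all genes. In NCS against ACS 16 passed (76.2%), in NCS against CCS 16 (76.2%) and in ACS against CCS 7 (35%), beside 48.0%, 51.6% and 28.7% of all genes. As examples chosen after their values were seen, FvH4_5g04740, UDP-D-glucose/UDP-D-galactose 4-epimerase 5, of the enzyme that makes UDP-galactose, the donor for galactinol, had means of 24.6 RPKM in AH and 48.6 in NCS, against 65.1 in ACS and 62.8 in CCS. The other gene of this enzyme, FvH4_5g01780, 4-epimerase 3, went the other way, with means of 47.2 RPKM in AH, 34.7 in NCS, 25.8 in ACS and 30.8 for CCS. FvH4_1g21450, myo-inositol-1-phosphate synthase 2, which supplies the inositol, had means of 149, 122.7, 87.6 and 103 RPKM.

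In NCS against CCS the median of all genes tested was 0.14 on the log2 scale and became 0.02 with median-of-ratios scaling, a shift of -0.12. The other comparisons shifted by -0.07 to 0.065. The median of the set changed sign in AH against NCS (-0.045 to 0.015) and in ACS against CCS (0.028 to -0.045). In ACS against CCS, 16 genes of the set passed the adjusted p upward and 15 downward, and 7 and 18 with this scaling. All values above are as deposited and can be read against these shifts. No value named above that passed the adjusted p changed its direction with the scaling.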

How the data were processed

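RNA of ripe fruit was sequenced in 12 libraries, 3 each of AH, NCS, ACS and CCS, grouped by their labels. The authors trimmed reads with cutadapt 1.16.6, aligned them to the *Fragaria vesca* reference with HISAT2 2.1.0, and used SeqMonk for the counting. They deposited RPKM per gene, unfiltered and not pooled, and columns of log2 fold change from DESeq2, which were not used. The kit was stranded but reads were counted without strand, so overlapping, antisense and closely related genes can share reads. Each pair of groups was compared with limma 3.58.1 in R 4.3.3 on log2(RPKM + 0.1) for genes that reached 0.5 RPKM in 3 or more of 6 libraries, with Benjamini-Hochberg adjustment over all genes tested. Reads were recovered as whole numbers, within 0.03, for 30995 of 30995 genes above 0, and lay between 64.2 and 119.9 M per library. Named genes are the DEGs of ACS against CCS, up to 4 DEGs per role with the largest change whose libraries do not overlap, the 2 most abundant genes of each role, and 4 genes identified by the study. Others are marked. The members, lists and roles were chosen with earlier results of these data known. Of the 181 identifiers, 0 matched the RefSeq gene table, so no coordinates are given. Alternatives were a pseudocount of 1, no filter, all 12 libraries in 1 fit, a replicate block, each library left out, median-of-ratios scaling, a trend and voom on recovered reads.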

Additional observations from a re-analysis of the deposited data

How the results depend on the processing

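No named value that passed the adjusted p changed direction in any alternative that was run. A pseudocount of 1 RPKM lowered the number of DEGs from 9 to 5 in AH against NCS, from 4 to 1 in NCS against ACS and from 3 to 1 in NCS against CCS, since low genes change less on that scale; the calls lost were, in AH against NCS, FvH4_4g20790 (1.06), FvH4_5g05860 (-1.125), FvH4_6g32610 (1.164) and FvH4_5g20800 (1.4622), in AH against CCS, FvH4_4g20790 (0.70) and FvH4_4g05940 (0.91), in NCS against ACS, FvH4_2g34480 (1.03), FvH4_5g05860 (1.38) and FvH4_6g07920 (1.42), and in NCS against CCS, FvH4_4g05940 (-1.25) and FvH4_5g05860 (1.23). Without a filter, 20 genes passed the adjusted p in ACS against CCS in place of 31, and the cause was not tested. Leaving out each library in turn gave 8 to 9, 7 to 8 and 5 to 7 DEGs in NCS, ACS and CCS against AH, 4 in NCS against ACS, 2 to 3 in NCS against CCS and 1 in ACS against CCS. By adjusted p alone it gave 32 to 57, 44 to 79 and 33 to 63 against AH, 42 to 56 and 42 to 49 against NCS, and 15 to 28 in ACS against CCS, with 16 without ACS replicate 2, 16 without CCS replicate 2 and 15 without CCS replicate 3. With the replicate block the DEGs numbered 9, 7 and 6 against AH, 4 and 3 against NCS and 1 in ACS against CCS, and 40, 48, 39, 51, 47 and 31 genes passed the adjusted p, so that it moved no count by over 1.5 times. Same-numbered libraries deviated together with mean correlations from -0.189 to 0.239 over 17152 genes, and in no comparison was every correlation over 0.1, so the numbers were not taken as pairs. A count model other than voom was not run. Genes under the filter were not compared.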
